A study of Mus musculus with 2 samples.

Results

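Restriction factors are proteins with which a cell blocks viruses and mobile elements. The 8 genes described here were Apobec3 and Apobec1, cytidine deaminases, Bst2, which encodes tetherin, Samhd1, a dNTP triphosphohydrolase, and the interferon-induced transmembrane genes Ifitm1, Ifitm2, Ifitm3 and Ifitm6. They are 8 of the 15181 distinct genes in 22 deposited tables, of which 18 each compare one cell cluster and 4 each compare one fibroblast subcluster. The genes were chosen on values of these same tables, among them the higher Apobec3 and Bst2, so their values are a description and carry no test. All 8 had a value in each of the 4 subcluster tables, and all 8 were listed in at least 1 of the 18 cluster tables.

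The tables compare ventricular interstitial cells of 2 droplet single-cell RNA-seq libraries, 1 per genotype, from mouse hearts collected 6 days after myocardial infarction (MI) according to the labels, where the study's methods give 7. The control library came from PostnMCM mice, and the other from Yapfl/fl;Wwtr1fl/+;PostnMCM mice, in which Cre can remove Yap1 from both chromosomes and Wwtr1 (encoding TAZ) from 1. Both strains carried the R26-eGFP reporter and ate chow with 0.4 g/kg tamoxifen, which switches on MerCreMer, a Cre recombinase made from the Postn locus in fibroblasts that become myofibroblasts. Cre is therefore directed at myofibroblasts, while 17 of the 18 clusters are named for other cells or have no named type. Yap1 and Wwtr1 were in none of the 18 cluster tables. In subclusters 0, 3, 4 and 5 the deposited log2 fold change was 0.07, 0.31, 0.04 and 0.26 for Yap1 and 0.15, -0.30, -0.21 and -0.16 for Wwtr1, so the log2 fold change of Yap1 was not below 0 in any of them. Its share of cells was lower in subcluster 4, with 57.5% in the control and 40% in the library labelled depleted, and higher in the other 3. A 3' tag need not fall in the deleted part of a gene, so this library is named by its label, as the library labelled depleted.

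APOBEC3 proteins deaminate cytidines in single-stranded viral DNA, and the mouse has a single Apobec3 gene, whereas APOBEC1 is best known for editing Apob mRNA. Tetherin holds budding virions at the cell surface, IFITM proteins sit in endosomal and plasma membranes and hinder fusion of viruses, and SAMHD1 lowers the dNTP supply that reverse transcription needs. Many of these genes are induced by interferons, which signal through JAK kinases to transcription factors that bind interferon-stimulated response elements. Interferon-gamma acts at gamma-activated sites. In the injured heart such genes are read in recruited leukocytes as well as in fibroblasts.

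The promoter windows of Apobec3, Bst2 and Ifitm3 are shown, as the members listed higher in the largest numbers of clusters. Each of those shown holds a repeat of the interferon-stimulated response element. So does the window of Ifitm2, listed higher in 2 clusters and lower in 3, while that of Ifitm1, listed only higher, holds none. Each window runs from 250 bases before to 50 bases after a RefSeq start site, 5' to 3' on the gene's strand, and was found once in GRCm39 (Apobec3 start site 1, chr15:79776359-79776658, plus strand; Bst2, chr8:71990067-71990366, minus strand; Ifitm3, chr7:140590608-140590907, minus strand). The search letters were GAAANNGAA for the repeat and TTCNNNGAA for the core of a gamma-activated site, on both strands. Capitals mark the matches, which run into each other where they overlap:
Apobec3: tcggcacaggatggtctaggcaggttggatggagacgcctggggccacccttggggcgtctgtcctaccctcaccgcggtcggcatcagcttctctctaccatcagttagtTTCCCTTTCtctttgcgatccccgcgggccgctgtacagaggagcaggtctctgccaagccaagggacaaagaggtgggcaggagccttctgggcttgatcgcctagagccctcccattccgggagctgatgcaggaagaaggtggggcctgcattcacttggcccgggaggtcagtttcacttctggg
Bst2: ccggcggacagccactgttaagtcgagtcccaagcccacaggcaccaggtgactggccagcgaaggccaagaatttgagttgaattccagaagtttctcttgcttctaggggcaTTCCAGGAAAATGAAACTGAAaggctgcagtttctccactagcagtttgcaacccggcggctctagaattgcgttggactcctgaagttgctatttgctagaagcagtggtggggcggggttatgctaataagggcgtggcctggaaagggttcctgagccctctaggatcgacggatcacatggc
Ifitm3: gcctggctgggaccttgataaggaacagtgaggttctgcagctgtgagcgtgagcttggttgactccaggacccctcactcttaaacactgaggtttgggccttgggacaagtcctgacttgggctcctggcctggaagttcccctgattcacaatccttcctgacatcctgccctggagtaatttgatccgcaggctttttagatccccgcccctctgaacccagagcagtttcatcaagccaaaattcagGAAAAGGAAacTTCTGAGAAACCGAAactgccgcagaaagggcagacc
Bst2 held 2 overlapping copies of the repeat, GAAAATGAA and GAAACTGAA, whose first bases lie at -130 and -124 from the start, and a gamma core, TTCCAGGAA, that overlaps the first copy. Apobec3 held 1 copy of the repeat, on the other strand, at start site 1 and none at start site 2. Ifitm3 held GAAAAGGAA and GAAACCGAA just after its start site, with the core TTCTGAGAA between and partly over the second, and Ifitm2 held GAAAAGGAA before its start. Samhd1 and Ifitm6 held a gamma core only, and the windows of Apobec1 and Ifitm1 held neither motif. In all, 4 of the 9 windows of the 8 members held the repeat, against 8.56% of 32851 promoters of the same length. The gamma core was in 4 of the 9, against 8.30%. A match to letters is no evidence that a factor binds there.

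By the GENCODE M39 annotation of GRCm39, the 4 Ifitm members lie within 63.1 kb of chromosome 7, Ifitm2 at chr7:140534738-140536228, Ifitm1 at chr7:140546316-140549743, Ifitm3 at chr7:140589499-140591282 and Ifitm6 at chr7:140595612-140597837. Apobec3 (chr15:79775860-79800206), Apobec1 (chr6:122553765-122580071), Bst2 (chr8:71986895-71990114) and Samhd1 (chr2:156939453-156977187) are on other chromosomes. Annotated transcripts of Ifitm2 and Ifitm3 share up to 69 consecutive bases, and those of Ifitm1 and Ifitm3 up to 64. Apobec3 overlaps Gm59337 on its own strand, and Ifitm2 overlaps Gm45717 and Gm74434.

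For each gene a share and a difference are given. The first is the share of cells of a cluster with a count, in percent. The second is the deposited log2 fold change, which takes the mean corrected count plus 1 on a log2 scale and subtracts the control value from that of the library labelled depleted. Positive values are thus higher in the library labelled depleted. The cluster tables hold only genes that differ by at least 0.25 on this scale and reach a share of 25% in one library or the other. A gene that is not listed has no value there, and is neither shown to be absent nor to be equal. The numbers of cells and reads per cluster do not come with these values, so that no interval or detection limit is given and fewer cells expressing a gene cannot be separated from less RNA per cell.

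Across the 18 clusters the 8 genes made 57 listings, 43 higher and 14 lower in the library labelled depleted. The higher listings were 75.4% of the total, beside 47.7% of the 15431 listings of all genes, and since the genes were chosen on these values nothing is read from the difference. Apobec3 gave 14 of the higher listings, Bst2 12 and Ifitm3 8. Samhd1, Ifitm2 and Ifitm6 were listed in both directions, Ifitm1 only higher and Apobec1 only lower. Being listed higher in at least 9 tables, as Apobec3 and Bst2 were, occurred in 33 of 6477 genes, or 0.509%. The listings closest to the limit of 0.25 were Samhd1 in cluster 11 (-0.25), Ifitm2 in cluster 2 (-0.26) and Ifitm3 in clusters 1 and 14 (0.26 each), and a value under the limit is not given by these tables.

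**Figure D1:**
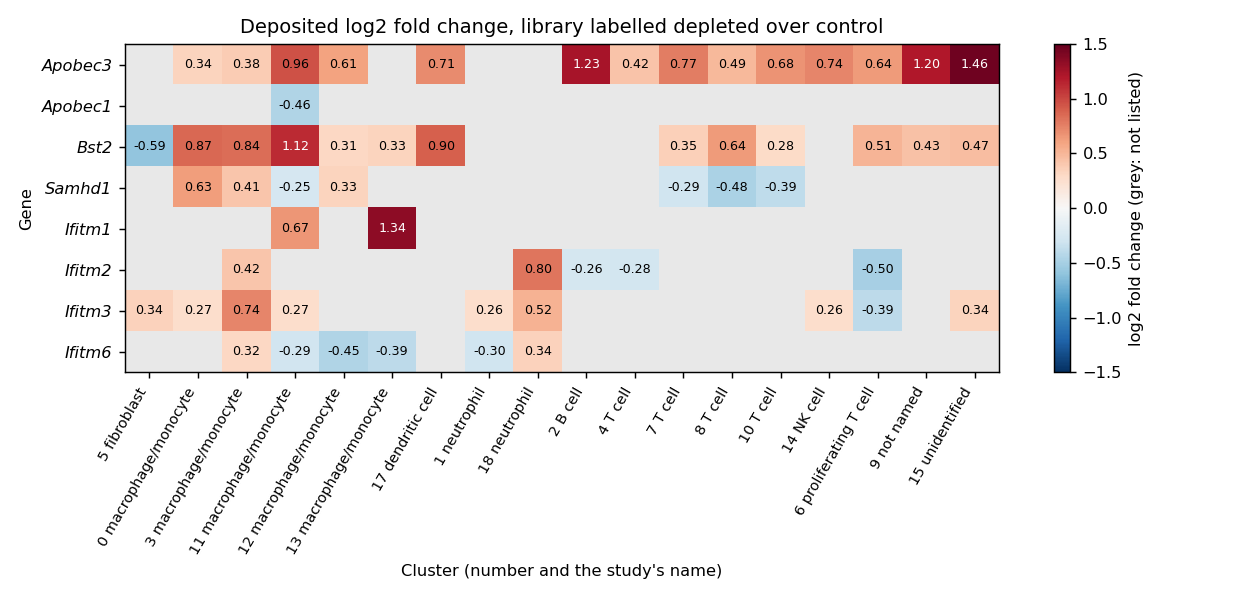
Deposited log2 fold change (colour and printed value) of the 8 genes (rows) in the 18 clusters (columns, with the cell type named by the study), library labelled depleted over control, 1 library per group. Grey cells are not listed. All 14 values of Apobec3 are above 0, while Bst2 is below 0 in the fibroblast cluster, at -0.59.

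Apobec3 was listed in 14 clusters and was higher in the library labelled depleted in each of them, with a median log2 fold change of 0.70. It covered the B cells, the NK cells, the dendritic cells, all 4 T cell clusters and 4 of 5 macrophage/monocyte clusters, besides cluster 6, which the study links to proliferating T cells, and clusters 9 and 15, to which it gives no type. It was not listed in either neutrophil cluster (1 and 18), in the fibroblasts (5) or in macrophage/monocyte cluster 13. The share of Apobec3-positive cells was higher by 18.1 to 66.2 percentage points and at least doubled in 12 of the 14 clusters.

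Among lymphocytes, Apobec3 was found in 10.4% of control B cells (cluster 2) and in 62.6% of those labelled depleted, a log2 fold change of 1.23 that was the 3rd highest of 159 genes in that table. In T cells the shares in the control library and the library labelled depleted were 9.4% and 30% in cluster 4 (log2 fold change 0.42), and 26.3% and 54.7% in cluster 7 (0.77). They were 10.5% and 35.4% in T cell cluster 8 (0.49), and 9.1% and 46.2% in cluster 10 (0.68). NK markers were higher in cluster 7 as well, with Klrb1c in 5.1% and 32.1% of cells and Klre1 in 14.1% and 30.8%, and their part was not tested. The control shares of Apobec3 in T cells stayed below the lowest share of the library labelled depleted, 30%, in all 4 clusters. NK cells (cluster 14) started higher, with 30.4% in the control and 69.2% in the library labelled depleted (0.74).

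In myeloid cells the largest Apobec3 value was in macrophage/monocyte cluster 11, with 25.7% of control cells, 72.9% of cells labelled depleted and a log2 fold change of 0.96. Clusters 0 and 3, of the same study type, gave 18.3% and 39.1% (0.34) and 21.6% and 41.6% (0.38). Cluster 12 gave 13.5% and 31.6% (0.61). Dendritic cells (cluster 17) had the highest control share of Apobec3 among the 14 clusters that list it, 50%, and reached 81.8% (0.71). Cluster 6 gave 11.1% and 54.1% (0.64) and cluster 9 gave 17.6% and 73.5% (1.20). The T cell marker Cd3g was listed higher in cluster 9, with at least 91.2% of control cells and 96.5% of cells labelled depleted. In the same cluster the NK marker Gzma was found in 82.4% and 58.2% of cells and the B cell marker Cd79b in 23.5% and 38.1%. The part of these markers was not tested. Cluster 15 gave 15.6% and 81.8% (1.46), the highest log2 fold change of Apobec3 in a cluster. Cell type markers also differed within cluster 15, where Cd8a was found in 56.2% and 27.3% of cells, Cd4 in 34.4% and 63.6% and Klrd1 in 50% and 81.8%. The dendritic cell marker Siglech was found there in 100% of cells of both libraries, though listed lower, and Clec9a in 40.6% and 63.6%. The part of these markers in the values of Apobec3 and Bst2 there was not tested. The study describes clusters 6, 9 and 10 as coming mostly from the library labelled depleted, and could not identify 15. Without these 4, Apobec3 was listed higher in 10 of 14 clusters.

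Over the 14 clusters that list Apobec3, the order of the control shares of Apobec3 ran from dendritic cells (50%) through NK cells (30.4%), T cell cluster 7 (26.3%) and macrophage/monocyte clusters 11 and 3 down to T cell cluster 10 (9.1%). With 1 library per group there is no spread against which to separate neighbours in this order.

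**Figure D2:**
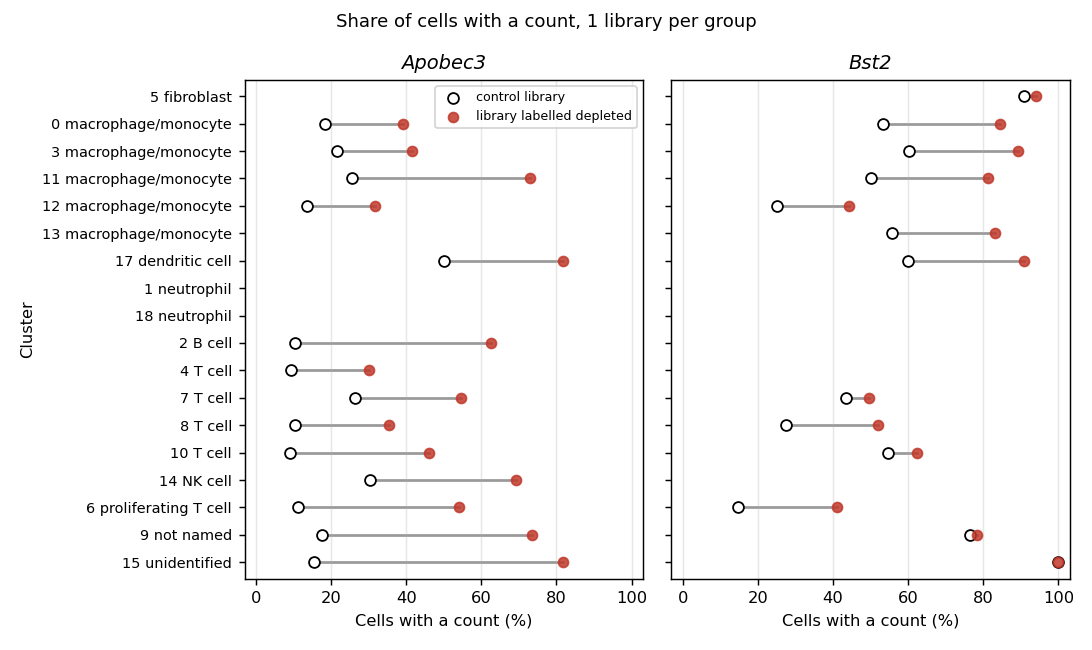
Share of cells with a count (x axis, percent) of Apobec3 and Bst2 in each cluster that lists them (y axis), open points for the control library and filled points for the library labelled depleted, joined by a line. Every Apobec3 line runs to the right, by at least 18.1 percentage points, and the Bst2 line of cluster 15 has no length because both shares are 100%.

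Bst2 was listed in 13 clusters and was higher in 12, with a median log2 fold change over all 13 of 0.47. These were all 5 macrophage/monocyte clusters, the dendritic cells, T cell clusters 7, 8 and 10, and clusters 6, 9 and 15. Bst2 was lower in the fibroblast cluster. It was not listed in B cells, NK cells, T cell cluster 4 or either neutrophil cluster.

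The highest log2 fold change of Bst2 was in macrophage/monocyte cluster 11, and the 5 clusters of that type ranged from 0.31 to 1.12. The share of Bst2-positive cells was 53.2% in control cells and 84.5% in cells labelled depleted of cluster 0 (log2 fold change 0.87), and 60.3% and 89.2% in cluster 3 (0.84). In cluster 11 it was 50% and 81.2%, with a log2 fold change of 1.12, the 10th highest of 729 genes. Cluster 12 had 25% and 44.3% (0.31) and cluster 13 had 55.8% and 83.1% (0.33). Thus clusters 0 and 13 had like differences in share and unlike differences in mean. Dendritic cells gave 60% and 90.9% (0.90). Among these cells the dendritic cell marker Siglech was found in 30% and 0% and Clec9a in 85% and 90.9%. The part of these markers in the Apobec3 and Bst2 values of cluster 17 was not tested.

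In T cells Bst2 was found in 43.4% and 49.7% in cluster 7 (0.35), 27.5% and 52.1% in cluster 8 (0.64) and 54.5% and 62.4% in cluster 10 (0.28). Cluster 6 gave 14.8% and 41.1% (0.51), cluster 9 gave 76.5% and 78.3% (0.43), and cluster 15 gave 100% in both libraries (0.47). In fibroblasts (cluster 5) Bst2 was found in 90.9% of control and 94.1% of cells labelled depleted, yet its log2 fold change was -0.59, the 56th lowest of 605 genes. There the share and the mean went opposite ways.

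Apobec3 and Bst2 were both listed higher in 11 of the 18 clusters. Apobec3 alone was higher in 3, the B cells, the NK cells and T cell cluster 4, and Bst2 alone in macrophage/monocyte cluster 13. No cluster listed them in opposite directions, the fibroblasts listed Bst2 alone, lower, and 2 clusters, the neutrophils, listed neither. In 6 of the 11 shared clusters the log2 fold change of Apobec3 was the larger one. The clusters share the same 2 libraries, so that these 11 are not separate observations of the genotype.

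Ifitm3 came next, listed in 9 clusters and higher in 8 of them, but with a smaller median log2 fold change, 0.27. In 6 of the 9 clusters over 90% of cells of both libraries had a count of it, and there the shares differed little. By the ratio of shares in place of means, Ifitm3 was higher in 4 clusters and lower in 4, and with a size limit of 0.5 it was higher in 2 and lower in 0. The widest was macrophage/monocyte cluster 3, with 96.1% and 99.6% of cells and a log2 fold change of 0.74. Neutrophil cluster 18 had 100% in both libraries and 0.52, and neutrophil cluster 1 had 99.4% and 99.6% and 0.26.

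Fibroblasts (cluster 5) gave 99.7% and 99.5% for Ifitm3 and a log2 fold change of 0.34, opposite in direction to Bst2 in the same cells. Macrophage/monocyte clusters 0 and 11 gave 0.27 each, with shares of 99.4% and 99.8%, and of 95.1% and 91.7%. NK cells gave 79.7% and 92.3% (0.26), and cluster 15 gave 53.1% and 45.5% (0.34). Cluster 6 was the one cluster that listed Ifitm3 lower, with 37% of control and 21.7% of cells labelled depleted and a log2 fold change of -0.39.

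Samhd1 was listed in both directions. It was higher in 3 macrophage/monocyte clusters and lower in 3 T cell clusters and in macrophage/monocyte cluster 11. In clusters 0, 3 and 12 its log2 fold change was 0.63, 0.41 and 0.33, with shares of 80.9% and 90.9%, of 83.7% and 92.6%, and of 92.7% and 96.2%. In T cell clusters 7, 8 and 10 it was -0.29, -0.48 and -0.39, with shares of 68.7% and 59.7%, of 57.3% and 43.8%, and of 36.4% and 10.2%. Cluster 11 gave 89.6% and 81.2% (-0.25). In each of the 3 T cell clusters Apobec3 and Bst2 were listed higher, while Samhd1 was listed lower. Myeloid markers were lower there too, with Csf1r in 36.4% and 11.8% of cells of cluster 10, Tyrobp lower in 7 and 10 and Lyz2 in 8 and 10, and their part in the Samhd1 values was not tested. In clusters 0, 3 and 12 all 3 genes were higher.

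Ifitm2 and Ifitm6 were also mixed. Ifitm2 was higher in macrophage/monocyte cluster 3 (98.6% and 99.3%, log2 fold change 0.42) and in neutrophil cluster 18 (54.5% and 88.2%, 0.80). It was lower in B cells (89.6% and 78.9%, -0.26), T cell cluster 4 (91.2% and 76.5%, -0.28) and cluster 6 (33.3% and 15.5%, -0.50). The B cells and both of these other clusters listed Apobec3 higher. In cluster 6, where Ifitm2 and Ifitm3 were lower, S100a9 (59.3% and 18.6%), H2-Ab1 (44.4% and 19.4%), C1qb, Tyrobp and Cd74 were listed lower as well, and their part was not tested.

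Ifitm6, a myeloid member of the family, was higher in cluster 3 (33.7% and 43.9%, 0.32) and in neutrophil cluster 18 (100% in both, 0.34). It was lower in neutrophil cluster 1 (32.5% and 23.2%, -0.30) and in macrophage/monocyte clusters 11 (59% and 43.8%, -0.29), 12 (79.2% and 64.6%, -0.45) and 13 (94.7% and 78.9%, -0.39). Thus the 2 neutrophil clusters had opposite values of Ifitm6.

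Ifitm1 was listed in 2 clusters and was higher in both, macrophage/monocyte cluster 13 (28.4% and 40.8%, 1.34) and cluster 11 (69.4% and 70.8%, 0.67). Apobec1 was listed once, lower in cluster 11 (46.5% and 33.3%, -0.46). Cluster 3 was the cluster in which most members were listed higher, namely all but Ifitm1 and Apobec1, and none was listed lower there.

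**Figure D3:**
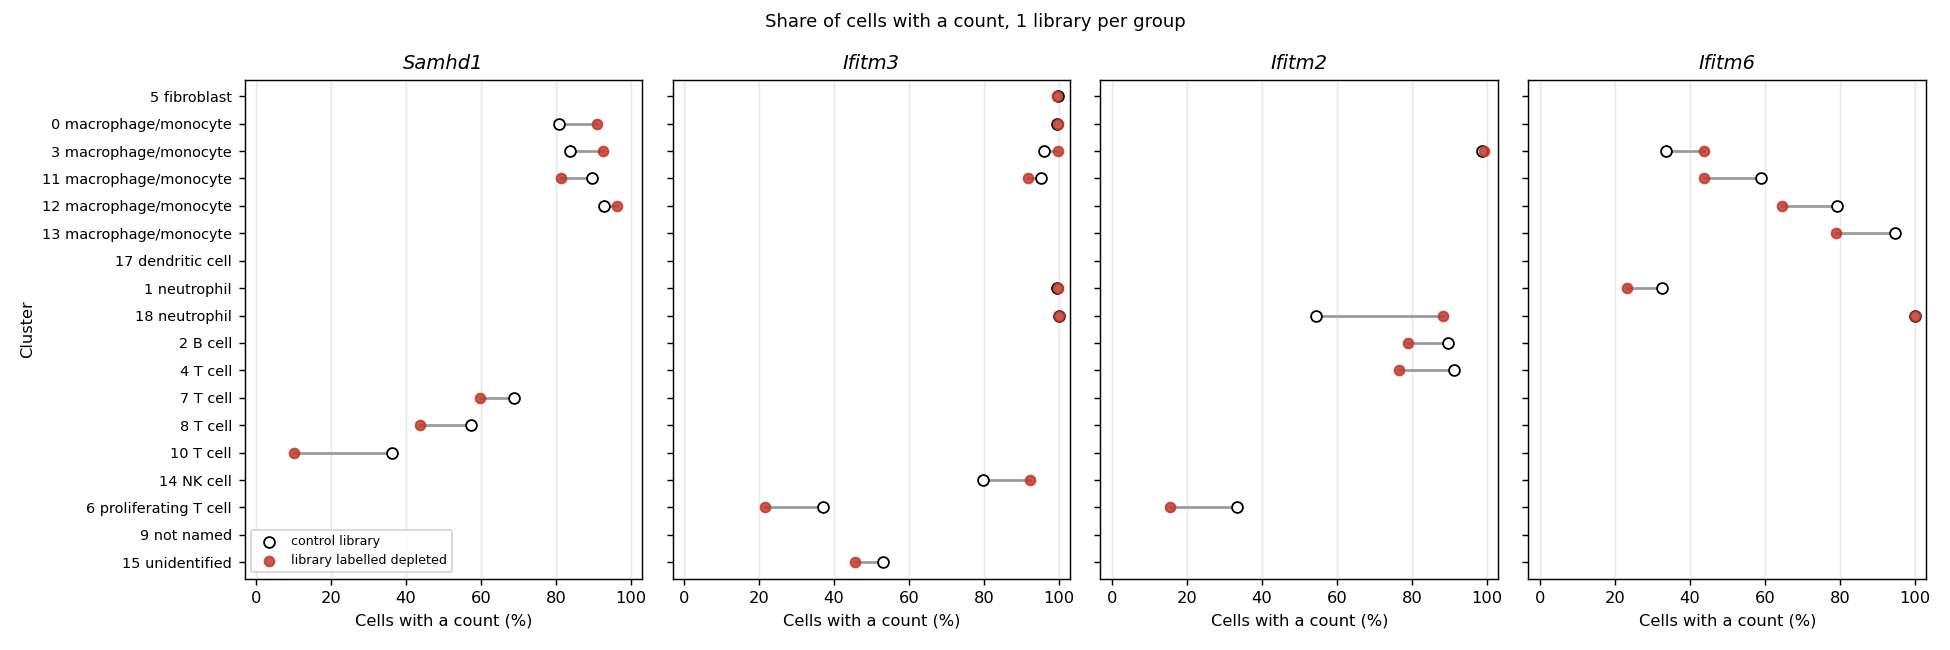
Share of cells with a count (x axis, percent) of Samhd1, Ifitm3, Ifitm2 and Ifitm6 in each cluster that lists them (y axis), open points for the control library and filled points for the library labelled depleted. For Samhd1 the lines of the T cell clusters run to the left, as far as from 36.4% to 10.2% in cluster 10, and those of macrophage/monocyte clusters 0, 3 and 12 run to the right.

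Cell type markers also differed between the libraries. S100a9, a neutrophil gene, was listed in 13 clusters and lower in 12, and S100a8 in 11 and lower in 9. Both were listed higher in the dendritic cells (cluster 17), where their shares of cells were lower. Of 47 listings of the 14 neutrophil markers, 38 were lower and 9 higher, or 19.1% higher beside the 47.7% of all listings. Counted over all clusters, their own included, fibroblast markers were listed 23 times lower and 7 higher (23.3% higher) and macrophage markers 25 and 6 (19.4%). Dendritic cell markers gave 14 and 3 (17.6%) and B cell markers 7 and 1 (12.5%). T cell markers were listed 5 times lower and 14 higher (73.7%), and NK cell markers 4 and 10 (71.4%). Lyz2 was lower in 12 of 13 clusters, H2-Ab1 in 10 of 10 and Col3a1 in 9 of 10. In the fibroblast cluster S100a9 was found in 49.7% of control and 9.1% of cells labelled depleted (log2 fold change -2.22). In cluster 11, where Bst2 had its highest value, 9 of the 14 neutrophil markers were lower and 7 of 9 macrophage markers were listed, all lower. Lyz2 there was found in 76.4% and 45.8% of cells and Csf1r in 79.2% and 50%, while Flt3, a dendritic cell marker, was found in 50% and 75% and Klrd1, an NK marker, in 22.2% and 68.8%. Markers of several cell types thus differed between the libraries within cluster 11, and their part in the values of Apobec3, Bst2, Ifitm1, Apobec1, Samhd1, Ifitm3 and Ifitm6 there was not tested. In clusters 4 and 14, where Apobec3 was higher, no neutrophil marker was listed, but Lyz2 and H2-Ab1 were listed lower in both, and the part of such RNA in the members' values was not tested.

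Ifi202b, an IFI200 family gene, separated the libraries further. It was listed in 6 clusters, with 0% of control cells in each and 27.1% to 80.3% of cells labelled depleted, the lowest in cluster 11 and the highest in cluster 13. In the 4 fibroblast subclusters it was again at 0% in the control and at 57.1% to 82.6% in the library labelled depleted. Ifi202b and Apobec3 are known to differ in expression between inbred mouse strains. The study names its source lines by stock number, but the sources used here state no strain background for the 2 groups, and the part of strain in the values of Apobec3 and Bst2 was not tested.

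**Figure D4:**
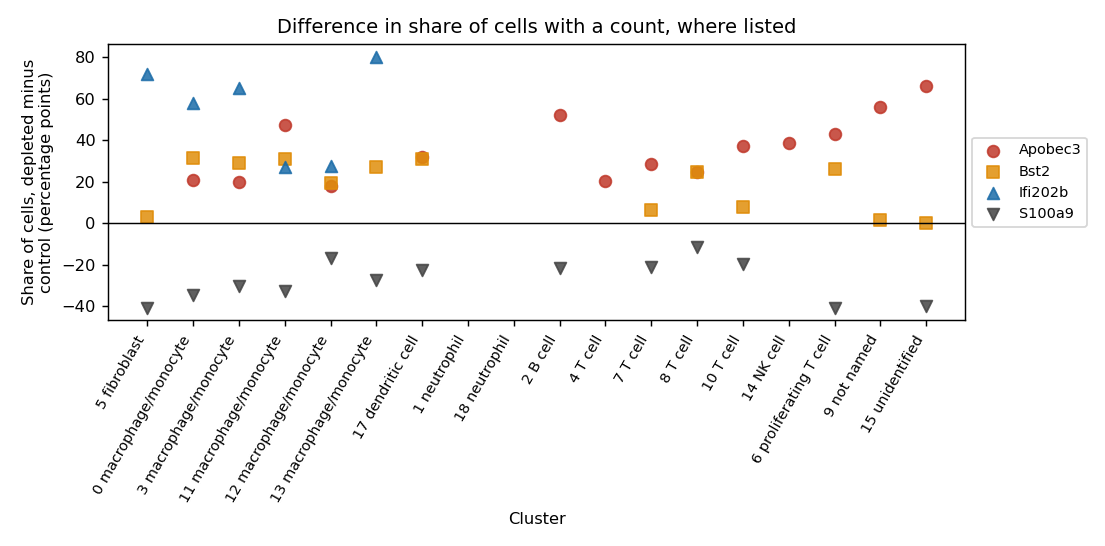
Difference in the share of cells with a count, library labelled depleted minus control (y axis, percentage points), for Apobec3, Bst2, Ifi202b and S100a9 in each cluster that lists them (x axis). Apobec3 lies above 0 in 14 clusters and Ifi202b in 6, while S100a9 lies below 0 in all 13 clusters that list it.

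The fibroblast subcluster tables carry no limits of size or share, and give every member a value in fibroblasts. Fibroblast markers were found on average in 77.0% to 92.6% of control and 80.0% to 96.2% of cells labelled depleted. Leukocyte markers were also found there, on average in 51.3% and 33.8% of cells of subcluster 0, 45.3% and 33.9% of subcluster 3, 50% and 38% of subcluster 4 and 35.6% and 34.8% of subcluster 5. The neutrophil markers averaged 22.4% to 32.9% in the control and 14.7% to 22.4% in the library labelled depleted, and the part of such RNA in the members' values was not tested. The study describes subclusters 0 and 4 as mostly of control cells, 3 as proliferating and 5 as matrix-producing and contractile.

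Bst2 was at 100% in both libraries in subclusters 0, 3 and 4, where its log2 fold change was -0.85, -0.36 and -0.81, the 42nd, 628th and 85th lowest of 15059 genes. In subcluster 5 it was found in 82.6% of control and 100% of cells labelled depleted, with a value of 0.83. Bst2 therefore had one sign in subclusters 0, 3 and 4, which was that of the whole fibroblast cluster, and the other in subcluster 5.

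Apobec3 was near 0 in subclusters 0 (46.9% and 37.5%, -0.07) and 4 (52.5% and 40%, -0.09), where its share of cells was lower in the library labelled depleted. It was higher in subclusters 3 (46.7% and 78.3%, 0.38) and 5 (21.7% and 38.1%, 0.32). Ifitm3 was at 100% in all 4 subclusters in both libraries and had values above 0 in each, of 0.12, 0.66, 0.06 and 0.60 in subclusters 0, 3, 4 and 5. For Ifitm3 and Apobec3 alike, subclusters 3 and 5 had the larger values. On the same log2 scale 7 of 10 leukocyte markers were past the limits higher and 0 lower in subcluster 3 (median 0.48), beside 8.27% and 9.04% of all genes. In subcluster 5 they were 3 and 0 (0.24), beside 11.3% and 13%. Subcluster 0 gave 0 and 8 (-0.55), beside 7.03% and 5.56%, and subcluster 4 gave 0 and 4 (-0.15), beside 15.3% and 11.8%. The medians of the macrophage markers were 0.87 and 0.37 in subclusters 3 and 5, and the part of these cells' RNA was not tested.

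Ifitm2, also at 100% throughout, gave -0.28, 0.06, -0.56 and 0.05 in the same order, the opposite sign to Ifitm3 in subclusters 0 and 4. Ifitm1 gave -0.45, -0.41, -0.03 and -0.03, and its share in subcluster 3 was 40% in the control and 17.4% in the library labelled depleted. Samhd1 gave -0.06, 0.29, 0.55 and -0.22, with its widest difference in share in subcluster 4, from 55% to 70%.

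Apobec1 was found in 10% of control and 21.7% of cells labelled depleted of subcluster 3 (0.81) and stayed within 0.07 of 0 in the others, with 12.4% and 15.6% in subcluster 0, 10% in both libraries in subcluster 4 and 30.4% and 28.6% in subcluster 5. Ifitm6 was in 14.5% and 3.1% of cells of subcluster 0 (-0.38) and in no cell labelled depleted of subclusters 4 and 5, against 12.5% and 8.7% of control cells (-0.23 and -0.12). In subcluster 3 it was in 6.7% and 13% (0.08). Ifitm6 is a gene of myeloid cells, and neutrophil markers were found in these subclusters. In subcluster 3 their average share was 32.1% in the control and 22.4% in the library labelled depleted, opposite in direction to Ifitm6. The part of neutrophil RNA in the Ifitm6 values was not tested.

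With the limits of the cluster tables applied, no member was higher and 3 were lower in subcluster 0, against 7.03% of the 15059 genes higher and 5.56% lower. In subcluster 3, 3 members were higher and 2 lower, against 8.27% and 9.04%. In subcluster 4, 1 was higher and 2 lower, against 15.3% and 11.8%, and in subcluster 5, 3 were higher and none lower, against 11.3% and 13%. These counts of members come from the same tables the genes were chosen on and carry no test.

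**Figure D5:**
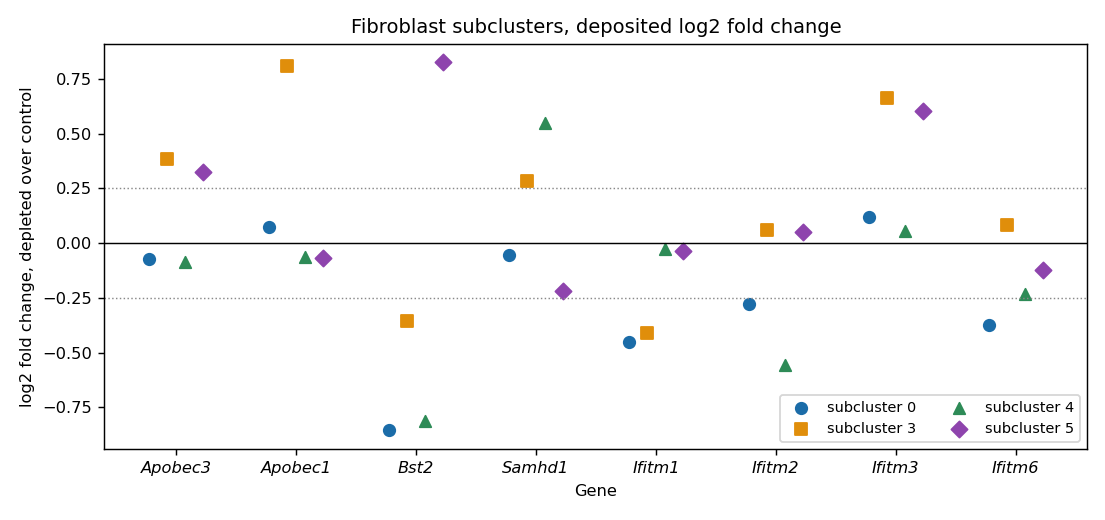
Deposited log2 fold change (y axis) of the 8 genes (x axis) in the 4 fibroblast subclusters (colours and marker shapes), library labelled depleted over control, with dotted lines at -0.25 and 0.25. Bst2 lies between -0.85 and -0.36 in subclusters 0, 3 and 4 and at 0.83 in subcluster 5, while the 4 values of Ifitm3 are all above 0.

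Other restriction factors were listed higher more often than lower. Of 38 such genes, a list written with earlier results of these data known, 26 were listed somewhere, with 77 listings higher and 18 lower, or 81.1% higher beside the 47.7% of all listings. Trim12a, a mouse relative of Trim5, was listed higher in 12 clusters and lower in none, from 7.9% and 26.1% of cells in cluster 0 to 53.1% and 68.2% in cluster 15. Oasl2, an oligoadenylate synthetase-like gene, was higher in 7 and lower in none. Trim30a and Serinc3, which encodes a membrane protein that lowers the infectivity of retroviral particles, were each higher in 7 and lower in 1. Slfn5 was higher in 5, and Slfn2 was higher in 2 and lower in 4.

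In the fibroblast cluster, where Bst2 was lower, 6 of these other factors were listed higher and none lower, where 262 of all 605 listed genes (43.3%) were higher. Trim30a was found there in 12.4% of control and 40.6% of fibroblasts labelled depleted (log2 fold change 0.48) and Serinc3 in 45% and 63.6% (0.36). In subclusters 0, 3, 4 and 5, of 36 other factors with a value, those past the limits were 10, 13, 18 and 13 higher and 0, 3, 2 and 0 lower. Of all 15059 genes 7.03%, 8.27%, 15.3% and 11.3% were past them higher, and 5.56%, 9.04%, 11.8% and 13% lower. The medians over the list were 0.11, 0.05, 0.27 and 0.20. The median over all 15059 genes was -0.0026 in subcluster 0 and 0 in the other 3.

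Genes of interferon signalling were listed in both directions, with 32 listings higher and 27 lower, or 54.2% higher beside the 47.7% of all listings. Without clusters 6, 9, 10 and 15 they were 29 higher and 14 lower. Irf7, which amplifies the type I interferon response, was higher in 6 clusters and lower in none, and Isg15, a ubiquitin-like interferon target, in 4 and none. Irf9 was higher in 3 and lower in 1, and Irf2 higher in 1 and lower in 3. Ifnar1, a chain of the type I receptor, was lower in all 4 clusters that listed it.

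Fibroblasts (cluster 5) listed 4 genes of interferon signalling higher and none lower, beside the same 43.3% of all genes listed there, among them Irf7, in 29.2% and 70.1% of cells (0.80), and Isg15, in 49.7% and 77% (0.79). So in cluster 5 Irf7, Isg15 and Ifitm3 were higher while Bst2 was lower.

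Genes of dNTP supply and linked nucleases, the pathway of SAMHD1, gave 9 listings higher and 11 lower, or 45% higher, close to the 47.7% of all listings. Dck, a deoxynucleoside kinase, was higher in 3 and lower in 2, and Rnaseh2c, a subunit of ribonuclease H2, was higher in 1 and lower in 4. The ribonucleotide reductase subunits Rrm1 and Rrm2 were higher in 1 and lower in 1, and lower in 2, and Tyms, thymidylate synthase, was lower in 2. Of further family members and cofactors, Ifitm10 was listed once, higher in cluster 7, and Syncrip, an RNA-binding partner of APOBEC1, once, lower in cluster 18. The IFI200 family gave 25 listings higher and 17 lower (59.5% higher), with Mndal higher in 9 and lower in 2, Ifi203 higher in 4 and lower in 5, and Ifi209 higher in none and lower in 6.

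The genes whose cluster pattern was most like that of Apobec3 were mostly ribosomal pseudogenes and unnamed gene models. Likeness is the number of clusters listing both genes in the same direction as a percent of those listing either. Rpl34-ps1 reached 87.5%, with 14 of 16 clusters, Gm15682, Gm15501 and Rpl27a-ps4 reached 82.4% each, with 14 of 17, and Mettl23, a methyltransferase-like gene, reached 78.6%, with 11 of 14. For Bst2 they were Rpl34-ps1 (75%), Gm7429 (73.3%) and again Gm15682, Gm15501 and Rpl27a-ps4 (70.6% each). All of these genes were listed higher in 11 to 17 clusters and lower in none. Reads of such pseudogenes can come from their parent genes, and neither this nor the part of strain was tested. Without clusters 6, 9, 10 and 15, 4 of the 5 genes stayed for Apobec3 and 2 of the 5 for Bst2, where Mndal led with 70%.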

How the data were processed

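Ventricular interstitial cells of 1 PostnMCM and 1 Yapfl/fl;Wwtr1fl/+;PostnMCM library were compared within clusters by the authors. They aligned reads with Cell Ranger 6.1.1 to GRCm39 with NCBI annotation and reporter sequences, combined the libraries without depth normalization, and used SCTransform in Seurat with the mitochondrial percentage regressed out. Their cluster names were kept, and no doublet caller is named. The deposited tables hold an average log2 fold change and the fraction of cells with a count in each library, printed here as percent. Although log2 fold changes are the authors' comparison, they were used because they are the measured difference, while the authors' p-values over cells were not used. Not analysed here were cluster 16 and, among fibroblasts, subclusters 1 and 2. Depth and cell numbers per cluster are not given.

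With 1 library per group no test was possible. Listings were counted per gene and list, and alternatives were the log2 ratio of shares (0.5 percentage points added), limits of 0.5 and 1, centring, and leaving out clusters 6, 9, 10 and 15. Members and gene lists were chosen with earlier results of these data known. Named genes were all members, at most 6 per list by number of listings (ties by median size), the 5 most alike to Apobec3 and to Bst2, S100a8, S100a9, Ifi202b, Yap1 and Wwtr1. A gene of the interferon list that this rule names is not reported here. Lyz2, Csf1r, Flt3, Klrd1, Klrb1c, Klre1, Cd8a, Cd4, Cd3g, Gzma, Cd79b, H2-Ab1, Siglech, Clec9a, Col3a1, Tyrobp, C1qb, Cd74, Ifitm10 and Syncrip were named after their values were seen. Promoter windows came from RefSeq (table build GRCm38.p6) and all 8 members matched. They were placed on GRCm39 by exact match. Scripts used Python 3.11.15 and pandas 2.3.3 and were tested on simulated tables.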

Additional observations from a re-analysis of the deposited data

Results flagged for a closer look

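For 7 of the 8 genes the deposited log2 fold change had opposite directions in different populations, each at a size of at least 0.25, and these differences between populations were not tested. Bst2 was lower in fibroblast subcluster 0 (-0.85) and higher in macrophage/monocyte cluster 11 (1.12). Ifitm1 was at -0.45 in subcluster 0 and at 1.34 in macrophage/monocyte cluster 13. Ifitm2 was at -0.56 in subcluster 4 and at 0.80 in neutrophil cluster 18. Ifitm3 was at -0.39 in cluster 6, which the study links to proliferating T cells, and at 0.74 in macrophage/monocyte cluster 3. Ifitm6 was at -0.45 in macrophage/monocyte cluster 12 and at 0.34 in neutrophil cluster 18. Samhd1 was at -0.48 in T cell cluster 8 and at 0.63 in macrophage/monocyte cluster 0. Apobec1 was at -0.46 in cluster 11 and at 0.81 in subcluster 3. Subcluster and cluster values came from separate normalizations, and Apobec3 was the one member without such a pair.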

How the results depend on the processing

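No paired analysis was possible because there was 1 library for each genotype. Centring on the listed or detected genes of each table turned no direction of any member. Taken as the log2 ratio of shares of cells, the direction turned for Bst2 in cluster 5 (0.050), for Ifitm3 in clusters 5 (-0.0029), 11 (-0.052) and 15 (-0.22), for Samhd1 in subcluster 0 (0.047) and for Ifitm1 in subclusters 4 (0.26) and 5 (0.44), so that Bst2 was lower in 0 clusters. The 8 genes then had 9 subcluster values below 0, since 6 others came to 0 where both shares were equal. With a size limit of 0.5, Bst2 was higher in 6 clusters, and the 8 genes gave 22 listings higher and 1 lower. The other restriction factors then gave 20 higher and 2 lower, interferon signalling 10 and 3, dNTP supply 1 and 1, further family members 0 and 0, the IFI200 family 13 and 3, and neutrophil markers 5 and 27. With a limit of 1, Apobec3 was higher in 3 clusters and Bst2 in 1 and lower in 0, and the 8 genes gave 5 higher and 0 lower. The limits of the cluster tables left 7 subcluster values above 0 and 7 below 0. Without clusters 6, 9, 10 and 15, interferon signalling had 29 listings higher and 14 lower, and dNTP supply 5 higher and 6 lower. Cell numbers, which are not given, limit every share, most of all in clusters with few cells in either library.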
